A study of Mus musculus with 14 samples.

Results

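The angiopoietin and vascular endothelial growth factor (VEGF) system of the bone marrow was followed here through 8 mouse genes: the ligand genes Angpt1, Angpt4, Vegfa and Vegfc, and the receptor genes Tek, Kdr, Flt1 and Flt4. They were taken by symbol, with no threshold on their values, and are a part of the 2 families: Angpt2, Vegfb, Vegfd, Pgf and Tie1 are given with the rest of the pathway. All 8 are among the 50600 genes of the bulk table and the 32285 genes of the stromal tables. The table of blood-forming cells lists 11992 genes, 6 of them from this set; Angpt4 and Flt4 were not analysed there. The study asked how marrow cells differ when a breast tumour grows elsewhere in the body, and has 14 samples. Mesenchymal stem cells (MSC) were profiled in bulk in 4 libraries from mice bearing Py230, a mouse mammary tumour cell line, and in 4 libraries from tumour-free mice. Marrow stromal cells were profiled singly in 1 library from a PyMT mouse, which carries the polyoma middle T oncogene and grows mammary tumours, and in 1 library from a wild-type (WT) mouse. Hematopoietic stem and progenitor cells (HSPC) were profiled singly in 2 PyMT and 2 WT mice, all single cells being sorted and read from the 3′ end of transcripts by droplet sequencing. Age, strain background, tumour stage and the promoter of the oncogene are not in the labels, and the bulk titles do not say that libraries came from separate animals, so bulk p-values measure the spread between libraries only. Every HSPC title begins with PyMT, also for the 2 mice that the genotype labels and the condition column call WT; the genotype labels were followed.

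Angpt1 and Angpt4 encode secreted ligands of the receptor tyrosine kinase encoded by Tek, which keeps vessels quiet and is also found on blood stem cells. Vegfa encodes the main growth factor of blood vessels, which signals chiefly through the receptor encoded by Kdr, while the receptor encoded by Flt1 binds it tightly and signals weakly. Vegfc encodes a growth factor of lymphatic and sinusoidal vessels that acts through the receptor encoded by Flt4 and, once processed, also through that of Kdr. In marrow, leptin-receptor-positive (LepR+) stromal cells are a known source of Angpt1, and sinusoidal endothelium is known to carry the receptors of Kdr and Flt4.

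The 8 genes lie on 7 chromosomes in the GENCODE vM21 annotation of GRCm38. Angpt1 spans chr15:42424723-42676977 on the minus strand, Vegfa spans chr17:46016993-46032369 on the minus strand, and Vegfc spans chr8:54077606-54187096 on the plus strand. The exons of Angpt1 overlap those of 1 antisense gene, Gm17473; the strand setting of the bulk counts is not given in the sources used here, and Gm17473 had 173 reads over the 8 libraries. No annotated gene shares exons with the other 7. The 250 bases before the transcription start of Vegfa (chr17:46032378-46032627) and of Vegfc (chr8:54077282-54077531) are shown because these VEGF ligand genes changed in opposite directions in the bulk MSC, with the sequences taken from RefSeq (GRCm38.p6) and written 5′ to 3′ along each gene. Capitals mark the GC box GGGCGG, searched on both strands.
Vegfa: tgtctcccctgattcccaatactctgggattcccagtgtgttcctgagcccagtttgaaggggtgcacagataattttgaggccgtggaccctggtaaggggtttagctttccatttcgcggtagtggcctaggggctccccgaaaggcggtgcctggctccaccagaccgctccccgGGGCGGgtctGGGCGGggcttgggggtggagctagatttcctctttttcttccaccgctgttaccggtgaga
Vegfc: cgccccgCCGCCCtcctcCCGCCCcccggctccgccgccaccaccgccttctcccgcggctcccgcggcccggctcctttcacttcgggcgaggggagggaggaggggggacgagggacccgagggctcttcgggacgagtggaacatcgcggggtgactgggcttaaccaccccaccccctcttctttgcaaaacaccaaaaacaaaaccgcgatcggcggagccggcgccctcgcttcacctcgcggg
Each window held 2 matches, and 32.7% of 32851 such windows over the genome held at least 1. Neither window held the hypoxia response core ACGTG (in 16.6% of windows), the AP-1 site TGANTCA (6.75%), the ETS core CCGGAAG (6.91%) or the forkhead site GTAAACA (3.17%), each searched on both strands. Vegfa has 2 starts listed, and the outermost was used. Sequence outside these 250 bases was not searched, so sites farther from the starts would be missed.

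In bulk MSC, the ligand genes moved in both directions beside Py230 tumours: Angpt1 and Vegfc fell, Vegfa rose, and Angpt4 did not pass the test. The receptor gene Flt4 rose, whereas Tek, Kdr and Flt1 were low and uneven between libraries. All 8 genes passed the filter on low counts. In edgeR's quasi-likelihood test with Benjamini-Hochberg adjustment over 16317 genes, at an adjusted p under 0.05, 2 of the 8 were higher and 2 were lower, where 1.99% of all genes tested were called higher and 2.74% lower. The libraries held 4301375 to 9811251 counted reads. Levels are CPM, reads over the library total with TMM scaling. In bulk RNA, fewer cells of a type and less RNA per cell cannot be told apart.

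Angpt1 had 74.8, 82.9, 88.9 and 83.4 CPM in the Py230 libraries, against 200.3, 195, 154 and 167 CPM in the tumour-free libraries. Every Py230 library lay below every tumour-free library, as was the case for 5.61% of all genes tested. The means were 82.5 ± 5.81 CPM in Py230 MSC and 179 ± 22.3 CPM in tumour-free MSC (SD, n = 4 each), a log2 difference of −1.12 (SE 0.11, adjusted p = 8.98e-05). These levels rest on 347 to 844 reads in Py230 libraries and 1151 to 1543 reads in tumour-free libraries, beside 4 to 20 and 17 to 47 reads of the antisense Gm17473. Vegfc, the lymphatic growth factor, had 82.8, 100.1, 113 and 81.1 CPM in the Py230 libraries, against 163, 181, 147 and 151 CPM in the tumour-free libraries. Its ranges did not overlap either, with means of 94.3 ± 15.3 CPM in Py230 MSC and 161 ± 15.5 CPM in tumour-free MSC (SD, n = 4 each). The log2 difference of Vegfc was −0.76 (SE 0.12, edgeR adjusted p = 0.00253).

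Vegfa went the other way, with 2054, 1833, 1736 and 1187 CPM in the Py230 libraries, against 828, 849, 1009 and 996 CPM in the tumour-free libraries. The lowest Py230 library, replicate 4, stood above the highest tumour-free library; groups that did not overlap with Py230 above were seen for 5.36% of all genes tested. The mean was 1703 ± 369 CPM in Py230 MSC and 920.4 ± 95.1 CPM in tumour-free MSC (SD, n = 4 each), a log2 difference of 0.89 (SE 0.15, edgeR adjusted p = 0.00400). Angpt4, the other Tek ligand gene, had 38.4, 46.5, 35.2 and 41.7 CPM in the Py230 libraries, against 51.8, 36.1, 35.2 and 28.0 CPM in the tumour-free libraries. The ranges overlapped, and the log2 difference was 0.09 (SE 0.17, edgeR adjusted p = 0.869).

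Among the receptors, Flt4 had 24.8, 26.8, 14.1 and 23.3 CPM in the Py230 libraries, against 5.19, 6.65, 4.80 and 7.12 CPM in the tumour-free libraries. All 4 Py230 libraries stood above all 4 tumour-free libraries, and these levels rest on 103 to 216 reads in Py230 libraries and 38 to 49 reads in tumour-free libraries. The mean was 22.3 ± 5.61 CPM in Py230 MSC and 5.94 ± 1.12 CPM in tumour-free MSC (SD, n = 4 each), a 3.74-fold difference (log2 1.90, SE 0.23, edgeR adjusted p = 4.60e-04). The other receptors followed single libraries rather than groups. Tek had 9.05, 1.24, 1.053 and 11.3 CPM in the Py230 libraries, against 2.08, 5.99, 5.43 and 2.91 CPM in the tumour-free libraries. Kdr had 14.9, 2.35, 1.69 and 7.70 CPM in the Py230 libraries, against 1.17, 7.15, 4.17 and 3.34 CPM in the tumour-free libraries. Flt1 had 21.99, 2.23, 2.32 and 8.61 CPM in the Py230 libraries, against 1.95, 5.99, 6.82 and 2.47 CPM in the tumour-free libraries. Py230 replicates 1 and 4 were highest and Py230 replicates 2 and 3 among the lowest for Tek, Kdr and Flt1 alike, so the groups overlapped. Their log2 differences were 0.40 (SE 0.73, adjusted p = 0.876), 0.71 (SE 0.71, adjusted p = 0.729) and 0.97 (SE 0.78, adjusted p = 0.644) in edgeR, with the sign of each resting on 1 library. Without Py230 replicate 1 those of Kdr and Flt1 were −0.08 and −0.05, and without Py230 replicate 4 that of Tek was −0.20.

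The endothelial cadherin gene Cdh5 varied with Tek, Kdr and Flt1: it had 20.03, 0.735, 2.45 and 7.44 plain CPM (over all counted reads, with no TMM scaling) in Py230 replicates 1 to 4, against 0.489, 1.95, 4.81 and 1.74 plain CPM in tumour-free replicates 1 to 4. The part of endothelial RNA in these 3 receptors was not tested. Flt4 went with some endothelial genes and not with others. Py230 replicate 2, the highest for Flt4, lay near 0 for Cdh5 and at 0 reads for Egfl7, an endothelial secreted factor. Emcn, an endothelial surface mucin, had 4.502, 7.23, 2.24 and 6.97 plain CPM in Py230 replicates 1 to 4, highest and lowest in the same libraries as Flt4, against 2.69, 1.46, 1.85 and 1.74 plain CPM in tumour-free replicates 1 to 4. The adhesion gene Pecam1 had 15.8 to 19.4 plain CPM in Py230 libraries and 10.7 to 15.6 plain CPM in tumour-free libraries, with no overlap. The part of endothelial RNA in the Flt4 difference was not tested. The 11 endothelial markers were all detected and summed to 88.9 to 118 plain CPM in Py230 libraries and 94.7 to 110.0 plain CPM in tumour-free libraries. Without Eng, the most abundant, which MSC also express, the sums were 40.1 to 81.0 plain CPM in Py230 libraries and 35.9 to 44.6 plain CPM in tumour-free libraries. The 7 sinusoidal markers, apart from Vcam1, which MSC also express, summed to 549 to 593 plain CPM in Py230 libraries and 502 to 563 plain CPM in tumour-free libraries. Stab2, of that list, had only 1.02 to 9.45 plain CPM in Py230 libraries and 5.26 to 8.94 plain CPM in tumour-free libraries. Emcn was low as well, so other genes of the list carried these sums. Of 6 lymphatic endothelial markers, Ccl21a was at 0 in all libraries, and the list summed to 18.7 to 57.6 plain CPM in Py230 libraries and 19.7 to 33.6 plain CPM in tumour-free libraries. The 6 monocyte and macrophage markers summed to 67.9 to 108 plain CPM in Py230 libraries and 48.9 to 60.6 plain CPM in tumour-free libraries; their part in the Flt4 difference was not tested.

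The label of the cells held against their markers, with Lepr at 2756 to 3221 plain CPM in Py230 libraries and 2947 to 3814 plain CPM in tumour-free libraries. Cxcl12, the chemokine that marks the same cells, moved with Angpt1 and Vegfc, at 8491 to 11470 plain CPM in Py230 libraries and 18545 to 20789 plain CPM in tumour-free libraries. The 6 LepR+ mesenchymal markers, apart from Cxcl12, were lower as a sum too. They had 6103 to 6593 plain CPM in Py230 libraries and 8673 to 9785.5 plain CPM in tumour-free libraries. The part of fewer LepR+ or Cxcl12-rich cells in the 2 ligands was not tested.

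Per kilobase of exon, the order of mean levels in Py230 MSC was Vegfa (397 CPM per kilobase), Vegfc (38.5), Angpt4 (17.3), Angpt1 (15.9), Flt4 (2.70), Tek (1.20), Kdr (0.737) and Flt1 (0.651). In tumour-free MSC it was Vegfa (215 CPM per kilobase), Vegfc (65.6), Angpt1 (34.4), Angpt4 (16.2), Tek (0.870), Flt4 (0.722), Kdr (0.438) and Flt1 (0.319). Ranges over the libraries overlapped between Angpt4 and Angpt1 in Py230 MSC, and between each receptor and its neighbour in the order in both groups. Flt4 and Flt1 did not overlap in either group.

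**Figure D1:**
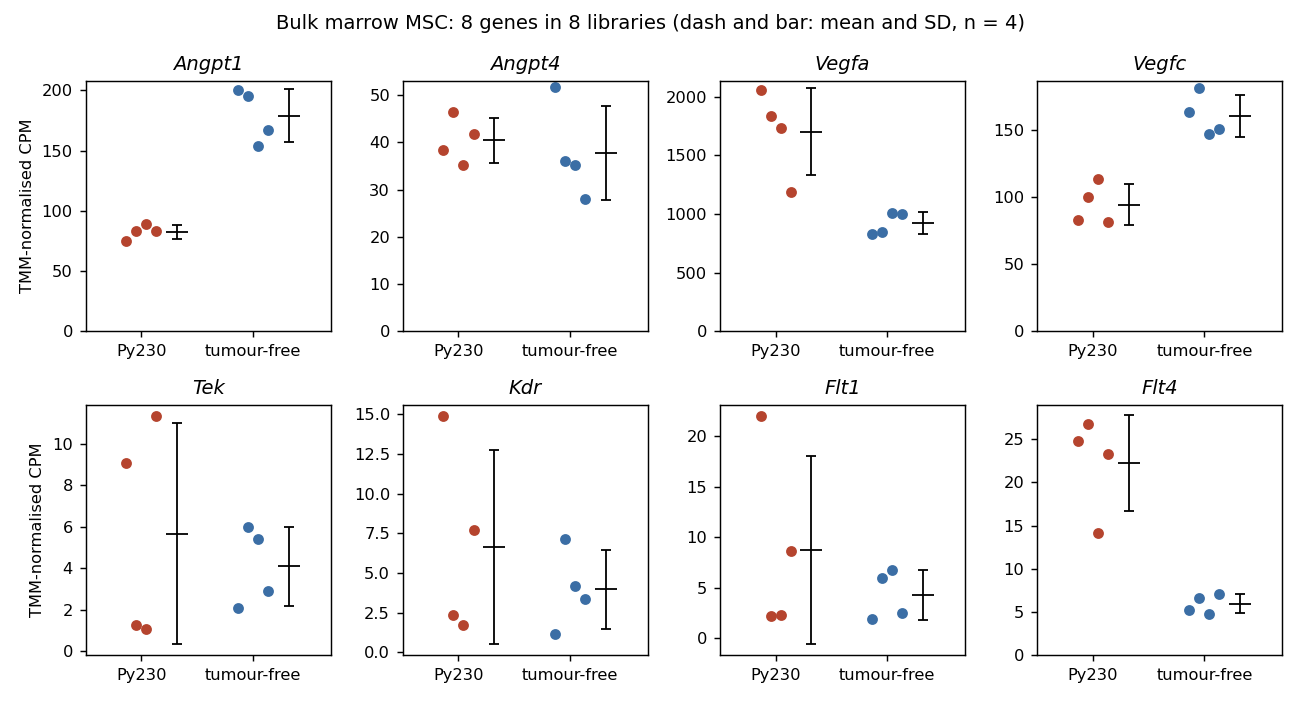
Level of each gene (TMM-normalised CPM, linear axis that includes 0) in 4 Py230 and 4 tumour-free bulk MSC libraries, 1 point per library, with the mean and SD (n = 4) to the right of each group. The groups separate for Angpt1, Vegfa, Vegfc and Flt4, and overlap for Angpt4, Tek, Kdr and Flt1, where Py230 replicate 1 or 4 is highest except for Angpt4.

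The rest of the pathway was read from 5 lists with 49 genes. In bulk MSC none of the 4 other ligands (Angpt2, Vegfb, Vegfd and Pgf) passed edgeR's test, with 1 of them higher and 0 lower at an unadjusted p under 0.05 and 0 called by DESeq2. None of the 4 other receptors and co-receptors passed in edgeR or DESeq2, and none had an unadjusted p under 0.05. Among 11 modulators, 2 rose and 1 fell, with a median log2 difference of 0.25 beside 0.04 over all genes tested. Sulf1, which trims heparan sulfate that VEGF binds, rose to 616 ± 100.1 CPM in Py230 MSC, against 335 ± 49.3 CPM in tumour-free MSC (SD, n = 4 each; log2 0.88, SE 0.14, edgeR adjusted p = 0.00239). Sema3c, a neuropilin ligand, rose to 6.98 ± 3.86 CPM in Py230 MSC, against 2.22 ± 0.596 CPM in tumour-free MSC (log2 1.64, SE 0.42, edgeR adjusted p = 0.0427). The 7 fibroblast markers summed to 780 to 1009 plain CPM in Py230 libraries and 651 to 774 plain CPM in tumour-free libraries. Without Pdgfra, the most abundant, the sums were 12.1 to 40.2 and 11.4 to 23.1 plain CPM. The part of fibroblast RNA in the Sema3c difference was not tested. Adamts1, a protease known to bind and restrain VEGF, fell to 1472 ± 143 CPM in Py230 MSC, against 2070 ± 270.4 CPM in tumour-free MSC (log2 −0.49, SE 0.12, edgeR adjusted p = 0.0318).

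Of 13 tested hypoxia-linked genes, 3 rose and 0 fell, with a median log2 difference of 0.53; at an unadjusted p under 0.05, 7 were higher and 1 lower, and DESeq2 called 5 higher and 1 lower. Ddit4, a stress-induced inhibitor of mTORC1, rose to 76.9 ± 17.6 CPM in Py230 MSC, against 36.0 ± 8.30 CPM in tumour-free MSC (log2 1.09, SE 0.18, edgeR adjusted p = 0.00458). P4ha1, a collagen prolyl hydroxylase, had 156 ± 21.02 CPM in Py230 MSC and 103 ± 5.10 CPM in tumour-free MSC (log2 0.61, SE 0.11, edgeR adjusted p = 0.00482). Epas1, which encodes a hypoxia-inducible factor subunit, had 2848 ± 424 CPM in Py230 MSC and 1972 ± 96.0 CPM in tumour-free MSC (log2 0.53, SE 0.12, edgeR adjusted p = 0.0214). Of 13 tested endothelial targets and signalling partners, 0 passed in edgeR, 1 was higher and 4 were lower at an unadjusted p under 0.05, and DESeq2 called 0 higher and 3 lower.

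Single stromal cells showed where each gene is transcribed. After the filter on genes and mitochondrial share, 3191 of 3563 PyMT cells and 2190 of 2508 WT cells were used, in the 6 clusters that the authors deposited; 2 cell barcodes occur in both libraries. By their markers, cluster 0 was LepR+ mesenchymal-like (Adipoq, Cxcl12), cluster 2 fibroblast-like (Pi16, Dpt), cluster 3 sinusoidal endothelial-like (Stab2), cluster 4 capillary and arterial endothelial-like (Cd36, Gpihbp1, Podxl) and cluster 5 osteolineage-like (Bglap, Col1a1). Cluster 1 had no name from the markers and was led by Fmod, Angptl7 and Chad. Levels are unscaled CPM of UMIs (unique molecular identifiers) summed over a cluster, with 95% exact Poisson intervals, and shares of cells have 95% Clopper-Pearson intervals; both cover counting error only. The clusters were made from these cells' genes, so levels between clusters are a description.

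Vegfa, Vegfc and Angpt1 were highest in the LepR+ cluster. Vegfa had 832 CPM (814 to 849) there in the PyMT library and 378 CPM (359 to 399) in the WT library, and was found in 84.5% of PyMT cells and 63.8% of WT cells. In the other 5 clusters Vegfa ran between 72.4 and 203 CPM in the PyMT library and between 23.8 and 142 CPM in the WT library. Vegfc had 206 CPM (197 to 214) in the LepR+ cluster of the PyMT library and 272 CPM (256 to 289) in that of the WT library. Its next level was 79.2 CPM (34.2 to 156) in cluster 4 of the PyMT library, from 8 UMIs, and 25.7 CPM (5.30 to 75.1) there in the WT library, from 3 UMIs.

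Angpt1 had 159 CPM (152 to 167) in the LepR+ cluster of the PyMT library and 180.1 CPM (167 to 194) in that of the WT library. Fibroblast-like cells came next, at 59.3 CPM (49.3 to 70.7) in the PyMT library and 63.8 CPM (55.4 to 73.0) in the WT library, and in the other 4 clusters Angpt1 had at most 15.4 CPM in the PyMT library and 8.69 CPM in the WT library. Of all Angpt1 UMIs, 91.6% in the PyMT library and 73.9% in the WT library came from the LepR+ cluster, which held 70.3% of PyMT cells and 44.6% of WT cells. In the sinusoidal-like cluster 3 Angpt1 had 3 UMIs in the PyMT library and 0 of 168714 UMIs in the WT library, which allows up to 17.8 CPM.

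Angpt4 had another pattern. It was highest in the osteolineage-like cluster, at 89.6 CPM (68.0 to 116) in the PyMT library and 42.5 CPM (29.1 to 60.0) in the WT library, from 58 and 32 UMIs. It was found in 23 of 55 PyMT cells and 17 of 63 WT cells of that cluster. The LepR+ cluster followed, at 17.3 CPM (14.9 to 19.996) in the PyMT library and 16.2 CPM (12.4 to 20.9) in the WT library. In both endothelial-like clusters Angpt4 had 0 UMIs in each library, which allows up to 6.62 and 29.7 CPM in clusters 3 and 4 of the PyMT library and 17.8 and 25.7 CPM in those of the WT library.

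Within cluster 5, the cells with an Angpt4 UMI differed from the rest in their bone genes. In the PyMT library the bone matrix gene Bglap, made by mature osteoblasts, had 4476 CPM in cells with Angpt4 and 24068 CPM in cells without it. In the WT library Bglap had 6577 CPM in cells with Angpt4 and 40892 CPM in cells without it. Spp1, an adhesive bone matrix protein, ran the other way, at 46425 CPM with Angpt4 and 10923 CPM without in the PyMT library, and 32014 CPM with and 8487 CPM without in the WT library. The cells with Angpt4 were shallower, with a median of 7062 UMIs against 11431 UMIs for those without in the PyMT library, and 7602 against 13480.5 UMIs in the WT library; the part of depth was not tested.

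The receptor genes Kdr, Flt1 and Flt4 sat in the endothelial-like clusters. Together, clusters 3 and 4 held 92.0% of Kdr UMIs in the PyMT library and 92.5% in the WT library. For Flt1 these shares were 93.2% in the PyMT library and 93.4% in the WT library, and for Flt4 83.9% in the PyMT library and 89.9% in the WT library. For Tek they were 55.9% in the PyMT library and 39.2% in the WT library, with a further 37.6% of PyMT and 58.5% of WT Tek UMIs in fibroblast-like cells. Kdr was high in both clusters, at 1361 CPM (1256 to 1473) in cluster 3 and 1941 CPM (1678 to 2232) in cluster 4 of the PyMT library. In the WT library Kdr had 1203 CPM (1043 to 1381) in cluster 3 and 1740 CPM (1509 to 1997) in cluster 4.

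Flt1 was highest in the capillary and arterial cluster 4, at 3475 CPM (3121 to 3859) in the PyMT library and 2691 CPM (2402 to 3006) in the WT library. In the sinusoidal cluster 3 it had 944 CPM (857 to 1038) in the PyMT library and 492 CPM (392 to 610) in the WT library. Flt4 had the opposite preference, at 1088 CPM (994 to 1188) in cluster 3 and 109 CPM (54.4 to 195) in cluster 4 of the PyMT library. In the WT library Flt4 had 688 CPM (568 to 825) in cluster 3 and 146 CPM (84.9 to 233) in cluster 4. In sinusoidal-like cells with a Kdr UMI, 90.4% of PyMT cells and 80.4% of WT cells also had one of Flt4; in cluster 4 these shares were 15.1% of PyMT cells and 16.2% of WT cells. The 6 lymphatic markers summed to 201 CPM in cluster 3 of the PyMT library, with 2 of them detected, and to 688 CPM in that of the WT library, with all 6 detected. Prox1, from that list, was found there in 7 of 120 PyMT cells and 4 of 55 WT cells. The part of lymphatic cells in the Flt4 level of cluster 3 was not tested. Cluster 4 was shallow, with a median of 1315 UMIs per cell in the PyMT library and 1116 in the WT library, and held Cxcl12 at 5248 CPM in the PyMT library and 4311 CPM in the WT library; the part of free RNA in its levels was not tested.

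Tek was also found outside the endothelial-like clusters. It had 269 CPM (224 to 321) in cluster 3 and 396 CPM (283 to 539) in cluster 4 of the PyMT library, and 344 CPM (261 to 444) and 514 CPM (392 to 662) in those of the WT library. In fibroblast-like cells Tek had 52.5 CPM (43.1 to 63.4) in the PyMT library and 53.4 CPM (45.8 to 61.9) in the WT library. It was found in 19.9% (15.9 to 24.5) of PyMT and 21.6% (18.3 to 25.3) of WT fibroblast-like cells, against 0.624% of PyMT and 0.512% of WT cells of the LepR+ cluster. Those clusters had medians of 5206 and 5655 UMIs per cell (fibroblast-like, PyMT and WT) and 4421.5 and 3591 UMIs (LepR+, PyMT and WT).

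The fibroblast-like cells with Tek lacked endothelial genes: of 69 such PyMT cells, 0 had Pecam1 and 1 had Cdh5, and of 121 such WT cells, 1 had Pecam1 and 1 had Cdh5. They carried Pi16, the gene that led this cluster, more often than the rest of it, in 52.2% of PyMT cells with Tek against 27.1% without, and in 62.8% of WT cells with Tek against 43.2% without. The cells with Tek were deeper, with medians of 7161 UMIs against 4862 UMIs for those without in the PyMT library and 6219 against 5480.5 UMIs in the WT library; the part of depth in the Pi16 shares was not tested. At 1500 UMIs per cell, with 2 PyMT and 5 WT cells left out as shallower, Tek was found in 4.36% (2.46 to 7.09) of PyMT and 7.76% (5.67 to 10.3) of WT fibroblast-like cells.

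**Figure D2:**
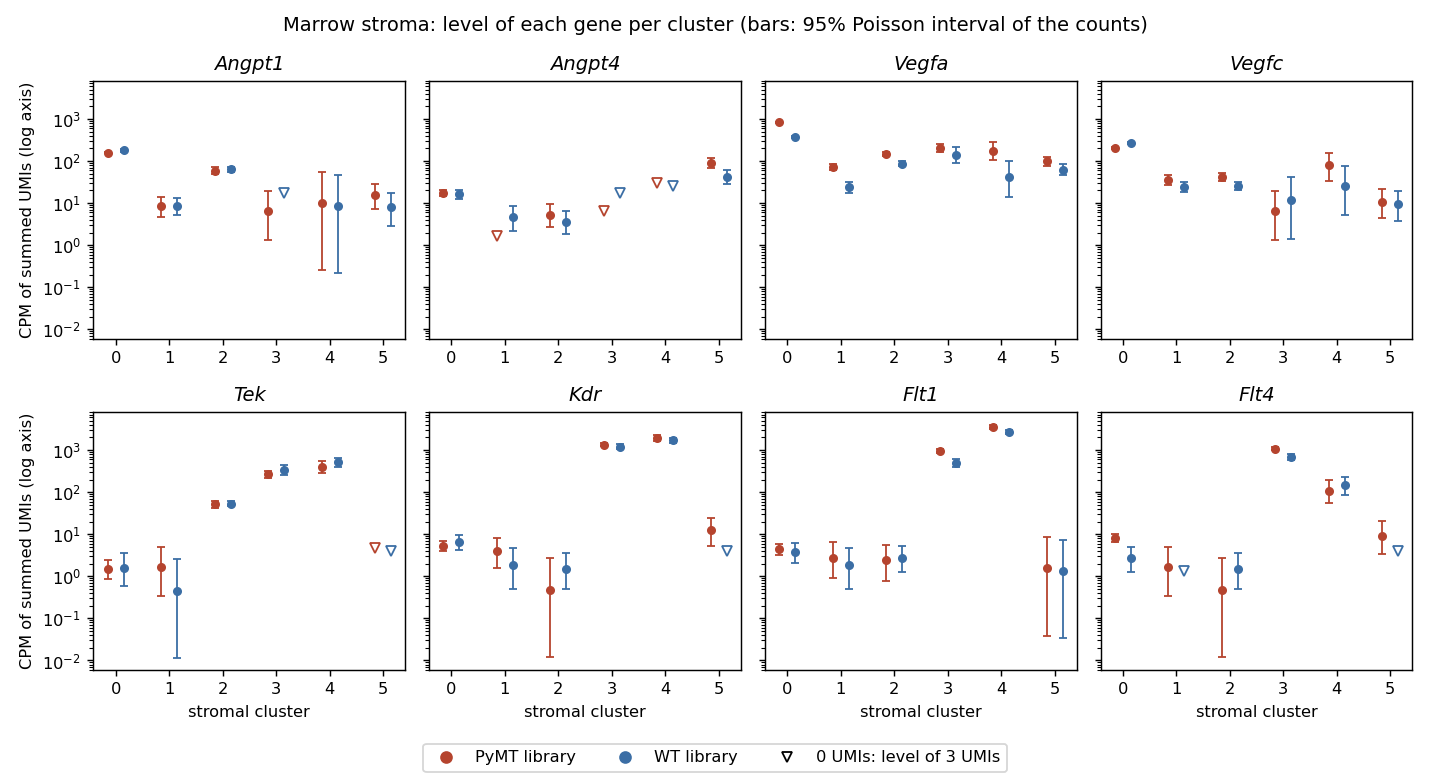
CPM of summed UMIs (log axis) of each gene in the 6 stromal clusters of the PyMT and the WT library, with 95% exact Poisson intervals of the counts; open triangles mark clusters with 0 UMIs at the level that 3 UMIs would give. Angpt1, Vegfa and Vegfc peak in cluster 0, Angpt4 in cluster 5, Flt4 in cluster 3 and Flt1 in cluster 4, while Tek is also seen in cluster 2.

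The genes whose pattern over the 12 sums of cluster and library was most like each member were ranked by Pearson's r of log2(CPM + 10) among 9823 genes, as a description of 2 libraries with unequal depths. Angpt1 was closest to Steap4 (0.98), Fst (0.97) and Asph (0.96), Vegfa to Mllt3 (0.98), Pycard (0.95) and Casp4 (0.93), and Vegfc to Pgrmc1 (0.95), Heyl (0.95) and Snai2 (0.94). Angpt4 was closest to Gucy1a1 (0.97), Syt6 (0.96) and Vdr (0.96), and Tek to Card10 (0.98), Magi3 (0.97) and Hecw2 (0.97). Kdr was closest to Ptprb (0.997), Egfl7 (0.997) and Rasip1 (0.996), Flt1 to Adgrl4 (0.999), Myct1 (0.998) and Pecam1 (0.997), and Flt4 to Stab1 (0.997), Smad1 (0.98) and Ipo11 (0.98).

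Between the PyMT and the WT stromal library, Vegfa was higher in the PyMT library in all 3 clusters large enough to compare, and Vegfc was lower in 1 of them and higher in another. With 1 library per genotype there is no test, no replicate check, and genotype and library cannot be told apart. A member was compared in a cluster where it had at least 20 UMIs over both libraries, which left 16 pairs of gene and cluster. Of these, 5 differed by at least 1.5-fold, all of them higher in the PyMT library. Among all genes in cluster 0, 12.1% were at least 1.5-fold higher in the PyMT library and 7.43% lower, against 2 and 0 of 8 members. In cluster 1 the shares were 17.3% higher and 5.65% lower, against 1 and 0 of 3 members, and in cluster 2 they were 11.2% higher and 5.93% lower, against 2 and 0 of 5 members.

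Vegfa had a log2 ratio of PyMT over WT of 1.14 (1.05 to 1.22) in cluster 0, from 8707 PyMT and 1401 WT UMIs. In cluster 1 it had 72.4 CPM in the PyMT library and 23.8 CPM in the WT library, a log2 ratio of 1.61 (1.13 to 2.10). In cluster 2 it had 150.3 CPM in the PyMT library and 87.4 CPM in the WT library, a log2 ratio of 0.78 (0.55 to 1.02). At 1500 UMIs per cell, Vegfa was found in 60.3% of PyMT and 41.3% of WT cells of cluster 0. Vegfc had a log2 ratio of −0.40 (−0.51 to −0.30) in cluster 0 and of 0.72 (0.27 to 1.17) in cluster 2, where it had 41.4 CPM in the PyMT library and 25.2 CPM in the WT library. In cluster 1 its interval included 0, at 0.53 (−0.02 to 1.08).

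Angpt1 had log2 ratios of −0.18 (−0.31 to −0.05), −0.06 (−1.14 to 0.998) and −0.11 (−0.44 to 0.22) in clusters 0, 1 and 2. Angpt4 had 0.09 (−0.34 to 0.54) in cluster 0 and 0.54 (−0.78 to 1.85) in cluster 2. Among the receptors, Tek had −0.02 (−0.38 to 0.33) in cluster 2, where the same ratio was −0.96 with every cell thinned to 1500 UMIs. Kdr had −0.30 (−1.02 to 0.45) and Flt1 0.22 (−0.67 to 1.19) in cluster 0. Tek had −0.08 (−1.51 to 1.56) in cluster 0. Each of these intervals but that of Angpt1 in cluster 0 included 0.

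Flt4 in the LepR+ cluster had 87 UMIs in 70 of 2242 PyMT cells and 10 UMIs in 9 of 977 WT cells, which gives 8.31 CPM (6.65 to 10.2) in the PyMT library and 2.70 CPM (1.29 to 4.97) in the WT library. The log2 ratio was 1.62 (0.67 to 2.73). All 70 PyMT and all 9 WT cells with Flt4 also had Lepr and Cxcl12, as nearly all cells of this cluster did. Among its cells without Flt4, 98.1% of PyMT and 94.7% of WT cells had Lepr, and 99.9% of PyMT and 100% of WT cells had Cxcl12. In fibroblast-like cells, for comparison, Flt4 was found in 1 of 346 PyMT and 4 of 559 WT cells. Endothelial genes were more frequent beside Flt4: Kdr was found in 14.3% of the PyMT cells with Flt4 and 1.20% of those without. Cdh5 was found in 10% of the PyMT cells with Flt4 and 1.29% of those without. Of the 70 PyMT cells, 10 had Kdr. Mixed droplets were not removed, and their part was not tested. Within the sinusoidal-like cluster 3, which was too small for a ratio, Flt4 had 493 UMIs in 120 PyMT cells and 116 UMIs in 55 WT cells.

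**Figure D3:**
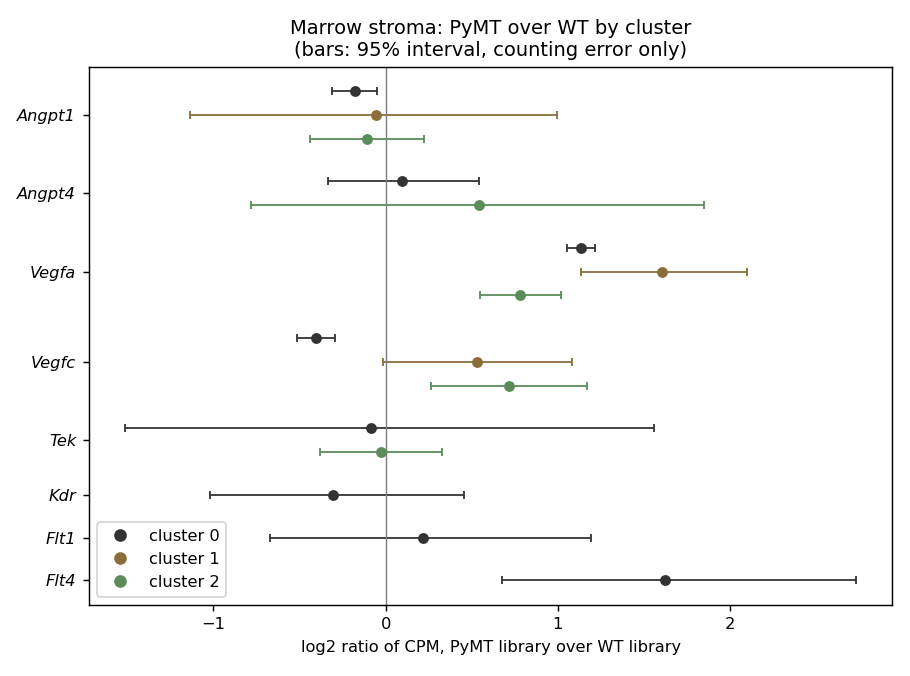
Log2 ratio of CPM, PyMT library over WT library, for each gene in stromal clusters 0, 1 and 2 where it had at least 20 UMIs; bars are 95% intervals that cover counting error only. Vegfa lies above 0 in all 3 clusters and Vegfc below 0 in cluster 0 and above 0 in cluster 2.

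Among the list genes, 6 were at least 1.5-fold higher in the PyMT library in all 3 clusters with every interval above 0, and were picked out after their values were seen. The share of all genes that met this rule in all 3 clusters was not computed. They were the hypoxia-linked genes Ddit4 and Adm and the genes Nr4a1, Egr3, Dusp5 and Klf2, which are induced early by growth factor signals or flow. Nr4a1 had log2 ratios of 1.49, 1.74 and 1.89 in clusters 0, 1 and 2, Egr3 1.33, 1.48 and 2.02, and Dusp5 1.11, 2.21 and 2.03. Ddit4 had 1.28, 1.62 and 0.92, Adm 1.18, 0.84 and 0.60, and Klf2 0.65, 0.71 and 0.76. The hypoxia-linked genes Epas1 (0.52, 1.22 and 0.67) and Ero1a (0.73, 0.70 and 0.55) also had every interval above 0. They fell short of 1.5-fold in cluster 0 (Epas1) and cluster 2 (Ero1a). Other hypoxia-linked genes had intervals below 0: Higd1a in all 3 clusters (−0.25, −0.71 and −0.63), P4ha1 in clusters 1 and 2 (−0.43 and −0.46) and Egln3 in cluster 2 (−1.33). P4ha1 had 0.26 in cluster 0 and Egln3 0.52 in cluster 1, with intervals above 0. Immediate early genes such as Nr4a1 are also known to rise when tissue is taken apart, and the part of cell handling in the Vegfa difference was not tested. Of the 13 measured hypoxia-linked genes, 12 lay above 0 and 1 below in cluster 0, with a median of 0.52 beside 0.08 over all 12617 genes. In cluster 1, 11 lay above 0 and 2 below, with a median of 0.52 beside 0.16 over all 10207 genes. In cluster 2, 8 lay above 0 and 5 below, with a median of 0.13 beside 0.08 over all 10680 genes. Pgf, a Flt1 ligand gene, had 85.7 CPM in the PyMT library and 42.7 CPM in the WT library in cluster 0, a log2 ratio of 1.01 (0.76 to 1.26). Adamts1, lower in bulk Py230 MSC, had log2 ratios of 0.58, 1.62 and 1.26 in clusters 0, 1 and 2, with every interval above 0. Sulf1, higher in bulk Py230 MSC, had 0.27, 0.46 and 0.22, also with every interval above 0. Sema3c was near absent from cluster 0, at 1.53 CPM in the PyMT library and 1.62 CPM in the WT library. In cluster 2 it had 509 CPM in the PyMT library and 387 CPM in the WT library.

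In HSPC, Angpt1 was by far the most abundant of the 6 genes, and it was lower in PyMT than in WT mice. Levels here are CPM of UMIs summed over all cells of a mouse; the libraries had 16365550 to 28570481 UMIs, and PyMT replicate 2 was shallower, with a median of 4257 UMIs per cell against 6643.5 to 7149 in the others. Between 8 and 23 cell barcodes were shared by any 2 libraries. The leukocyte gene Ptprc had 69.5 and 75.4 CPM in the PyMT mice, against 88.8 and 98.1 CPM in the WT mice. Angpt1 had 64.1 and 88.9 CPM in the PyMT mice, against 137 and 171 CPM in the WT mice. It was found in 35.6% and 33.5% of PyMT cells, against 57.7% and 65.9% of WT cells. At 2000 UMIs per cell, with 2 to 201 shallower cells left out per library, the shares were 14.5% and 19.2% in PyMT mice, against 25.5% and 29.8% in WT mice. Both PyMT mice lay below both WT mice on every one of these scales, a separation that 29.2% of all genes tested showed in this direction and 26.7% in the other, with 2 mice per group. In edgeR's quasi-likelihood test Angpt1 fell by 0.88 on the log2 scale (SE 0.16, adjusted p = 0.0497, n = 2 each).

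Of the 6 genes tested, 0 rose and 1 fell, where 0.85% of 11759 genes tested rose and 0.553% fell. At an unadjusted p under 0.05, 0 were higher and 3 lower, and DESeq2 called 0 higher and 2 lower. Vegfc had 2.70 and 3.95 CPM in the PyMT mice, against 6.21 and 8.31 CPM in the WT mice, a log2 difference of −0.996 (SE 0.24, edgeR adjusted p = 0.0662, n = 2 each). Tek had 4.69 and 5.90 CPM in the PyMT mice, against 9.55 and 8.86 CPM in the WT mice, a log2 difference of −0.68 (SE 0.18, edgeR adjusted p = 0.0748, n = 2 each). Vegfa was low in these cells, at 3.57 and 2.70 CPM in the PyMT mice, against 2.32 and 2.57 CPM in the WT mice (log2 0.49, SE 0.27, edgeR adjusted p = 0.305, n = 2 each). Kdr had 0.945 and 1.35 CPM in the PyMT mice, against 1.14 and 0.978 CPM in the WT mice (adjusted p = 0.761 in edgeR). Flt1 had 18 and 6 UMIs in the PyMT mice, against 12 and 1 UMIs in the WT mice (adjusted p = 0.697 in edgeR). Without PyMT replicate 2, edgeR called 3 members lower, Angpt1, Vegfc and Tek.

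The makeup of the HSPC differed between the genotypes as well. Cells with at least 5 UMIs of Elane, a granule protease of neutrophil precursors, made up 18.0% and 8.90% of PyMT cells, against 8.33% and 1.95% of WT cells. Cells with a UMI of Gata1, a factor of red cell and platelet precursors, made up 9.63% and 8.08% of PyMT cells, against 16.1% and 12.04% of WT cells. Pf4, a platelet gene, had 107 and 127 CPM in the PyMT mice, against 439 and 412 CPM in the WT mice, and the stem cell factor receptor Kit had 68.3 and 80.6 CPM in the PyMT mice, against 122 and 146 CPM in the WT mice. The part of this makeup in the genotype differences was not tested as such; cells were split by single genes: Procr, a marker of stem cells, Gata1, Dntt, the template-independent polymerase of early lymphoid cells, and Elane. The cuts of 1 UMI, or 5 for Elane, give 8 overlapping subsets of the same 4 mice.

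Angpt1 lay lower in both PyMT mice than in both WT mice in 8 of 8 subsets, and so did Vegfc. Over all cells of these mice, 29.2% of all genes tested separated in this direction and 26.7% in the other. The share of all genes that separated within the subsets was not computed. In Procr-positive cells Angpt1 had 84.1 and 113 CPM in the PyMT mice, against 170 and 206 CPM in the WT mice. In Elane-positive cells it had 25.4 and 31.9 CPM in the PyMT mice, against 44.9 and 71.3 CPM in the WT mice. In Gata1-positive cells it had 129 and 138 CPM in the PyMT mice, against 175 and 191 CPM in the WT mice. Tek was lower in 7 of the 8 subsets and overlapped in Procr-positive cells, with 5.63 and 9.61 CPM in the PyMT mice, against 10.7 and 7.21 CPM in the WT mice. Vegfa was higher in both PyMT mice in 5 subsets and overlapped in 3, including Elane-positive cells. Some separations were near ties or rested on few UMIs. In Procr-negative cells Vegfa had 2.7303 CPM in PyMT replicate 2 and 2.7298 CPM in WT replicate 2. In Elane-positive cells Vegfc had 1.78 and 1.04 CPM in the PyMT mice, from 15 and 5 UMIs, against 1.87 and 5.09 CPM in the WT mice, from 7 and 3 UMIs. No test was made inside the subsets.

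**Figure D4:**
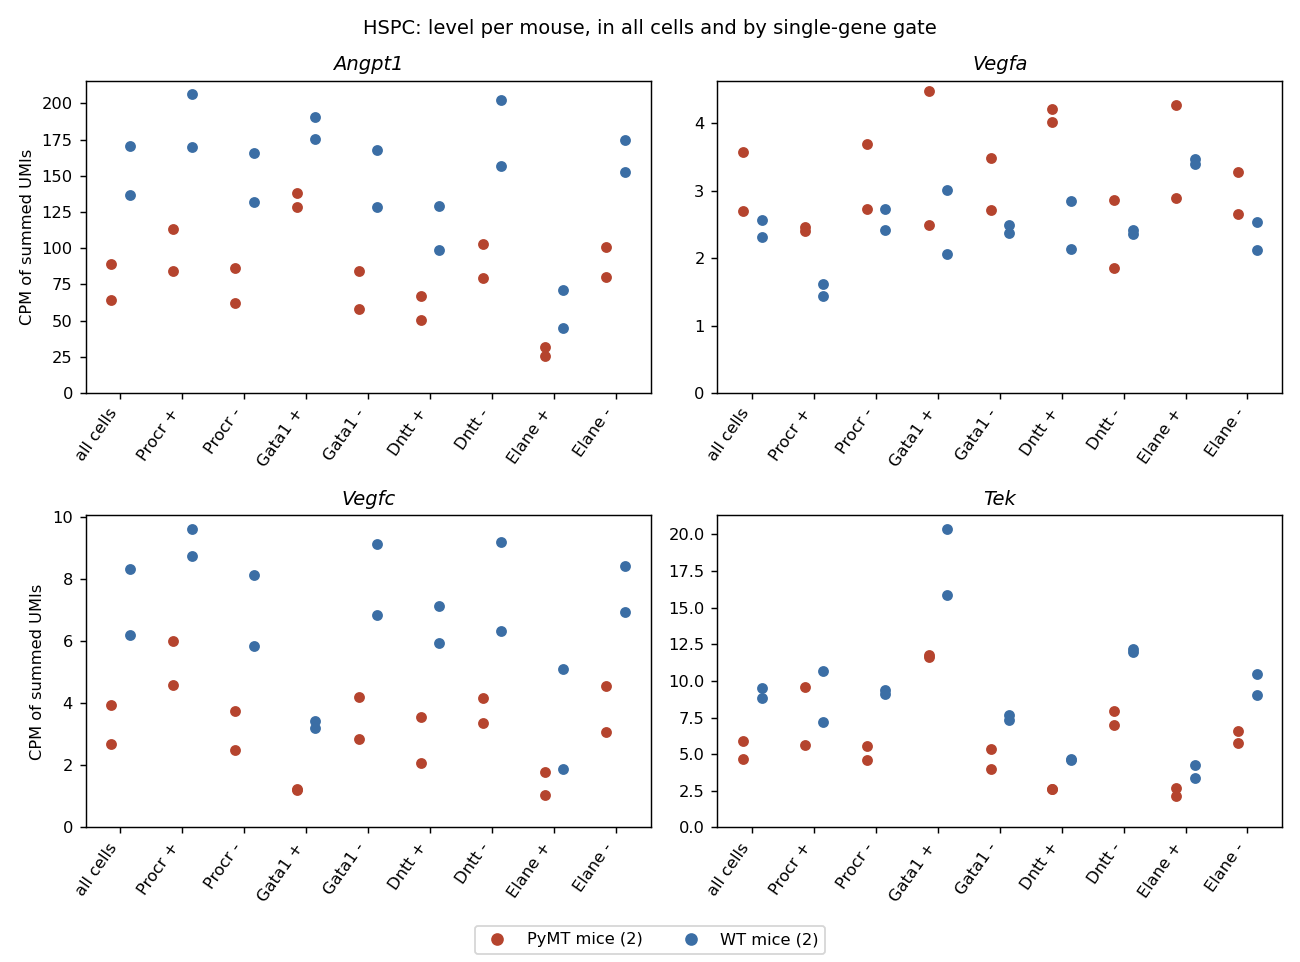
CPM of summed UMIs (linear axis from 0) of Angpt1, Vegfa, Vegfc and Tek in all HSPC and in cells positive (+) or negative (-) for each of 4 genes, 1 point per mouse, 2 PyMT and 2 WT mice. Angpt1 and Vegfc are lower in both PyMT mice in all 8 subsets, and Angpt1 is lowest in Elane-positive cells of both genotypes.

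Across the gates, Angpt1 and Tek were higher in Gata1-positive than in Gata1-negative cells, and lower in Dntt-positive and Elane-positive cells than in the cells without those genes. These tests compare gate-positive with gate-negative cells of the same 4 mice, with the mouse as a block, in edgeR's quasi-likelihood test with adjusted p-values. Gate-positive and gate-negative cells differed in depth, and not in 1 direction. Elane-positive cells had medians of 9452 to 13805 UMIs, against 3950 to 6671 for Elane-negative cells, and Dntt-positive cells were also deeper in each mouse. Procr-positive cells were shallower in each mouse, with medians of 3415.5 to 5681 UMIs, against 4341 to 7349 for Procr-negative cells. Gata1-positive cells were shallower in PyMT replicate 1 (6780 against 7272 UMIs) and deeper in the other mice. Gated cells also differ in many other genes, so the share of all genes called is given beside each count.

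In the Gata1 gate, 5 members were tested, of which 2 rose and 1 fell, where 14.7% of all genes rose and 16.1% fell. Tek had 11.8 and 11.6 CPM in Gata1-positive cells of the PyMT mice and 20.4 and 15.9 CPM in those of the WT mice, against 4.02, 5.36, 7.30 and 7.69 CPM in the Gata1-negative cells of the same mice. It was higher in the positive cells of 4 of 4 mice, by 1.31 on the log2 scale (SE 0.15, adjusted p = 2.80e-07). Angpt1 rose by 0.60 (SE 0.14, adjusted p = 0.0269) and Vegfc fell by 1.28 (SE 0.25, adjusted p = 3.64e-04), each in 4 of 4 mice; without PyMT replicate 2 the adjusted p of Angpt1 was 0.0981. Kdr was at 0.76 (SE 0.40, adjusted p = 0.164) and Vegfa at 0.07 (SE 0.28, adjusted p = 0.884). With every cell thinned to 2000 UMIs before the gate, 3 members could be tested and none passed in edgeR, with 1 higher and 0 lower at an unadjusted p under 0.05. Tek was at 0.66, Angpt1 at 0.26 and Vegfc at −0.90.

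In the Elane gate, 5 members were tested, of which 1 rose and 4 fell, where 28.3% of all genes rose and 29.2% fell. Angpt1, Tek, Vegfc and Kdr fell, each in 4 of 4 mice, with log2 differences of −1.46 (SE 0.06, adjusted p = 4.37e-24), −1.15 (SE 0.21, adjusted p = 6.03e-06), −1.21 (SE 0.27, adjusted p = 1.72e-04) and −1.997 (SE 0.57, adjusted p = 0.00280). Vegfa rose by 0.58 (SE 0.25, adjusted p = 0.0405) in 4 of 4 mice, and lost the call under 6 of 9 other settings, among them leaving out PyMT replicate 1 or 2 or WT replicate 1 (adjusted p = 0.178, 0.0665 and 0.147). Kdr had 3 and 1 UMIs in the Elane-positive cells of the PyMT mice, and 1 and 0 UMIs in those of the WT mice. It passed the filter on low counts through the Elane-negative cells, at 1.01 to 1.59 CPM. Its call therefore rests on few UMIs and is no support by itself, and the size of its change depends on the fit. In the Dntt gate, 1 of 5 members rose and 2 fell, where 16.2% of all genes rose and 14.3% fell. Tek fell by 1.41 (SE 0.13, adjusted p = 1.43e-10) and Angpt1 fell by 0.62 (SE 0.03, adjusted p = 2.25e-16), each in 4 of 4 mice, while Vegfc (−0.28) and Kdr (−0.66) did not pass. Vegfa rose by 0.53 (SE 0.19, adjusted p = 0.0347) in 3 of 4 mice, a call lost with DESeq2 (adjusted p = 0.388), without the mouse as a block (adjusted p = 0.368), and without PyMT replicate 1 (adjusted p = 0.127) or PyMT replicate 2 (adjusted p = 0.360).

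The Procr gate tested 4 members, of which 2 rose and 0 fell, where 10.5% of all genes rose and 14% fell. Angpt1 had 84.1 and 113 CPM in Procr-positive cells of the PyMT mice and 170 and 206 CPM in those of the WT mice, against 61.9, 86.5, 132 and 166 CPM in the Procr-negative cells of the same mice. It rose by 0.32 (SE 0.04, adjusted p = 9.92e-07), a change much smaller than the spread between the mice themselves. Vegfc rose by 0.50 (SE 0.19, adjusted p = 0.0494) and kept that call under 1 of 10 other settings. Tek, the receptor known from blood stem cells, was at 0.19 (SE 0.18, adjusted p = 0.474), higher in 3 of 4 mice. Vegfa was at −0.59 (SE 0.31, adjusted p = 0.168). Without the mouse as a block, 0 of the 4 members passed in edgeR, 0 at an unadjusted p under 0.05, and DESeq2 with the block called 1.

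Tek and Angpt1, receptor and ligand, were at times found in the same cell. In PyMT mice, 47.0% and 44.4% of cells with Tek also had Angpt1, against 35.2% and 33.2% of cells without Tek. In WT mice, 67.0% and 72.2% of cells with Tek also had Angpt1, against 57.1% and 65.5% of cells without Tek. Cells with Tek were the deeper ones in 3 of 4 mice, and the part of depth was not tested. Few cells had Tek at all, between 132 and 227 per mouse.

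**Figure D5:**
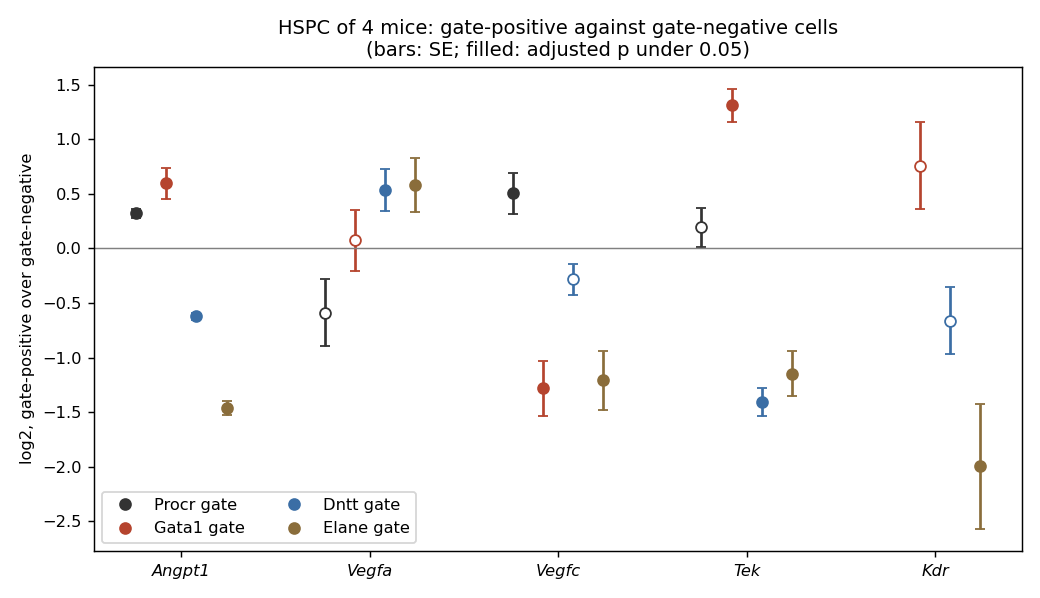
Log2 difference between gate-positive and gate-negative HSPC for 5 genes in 4 gates, fitted over the 4 mice with the mouse as a block; bars are standard errors and filled points have an adjusted p under 0.05. Angpt1 and Tek lie above 0 in the Gata1 gate and below 0 in the Dntt and Elane gates.

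Other receptors of the pathway were listed in the same gates. Tie1, the partner receptor of Tek, rose in the Procr gate (log2 0.53, SE 0.09, adjusted p = 1.23e-05) and the Gata1 gate (0.48, SE 0.10, adjusted p = 6.51e-04), and fell in the Dntt gate (−1.02, SE 0.07, adjusted p = 1.77e-13) and the Elane gate (−1.002, SE 0.12, adjusted p = 7.65e-10). Nrp1, a co-receptor for Vegfa, fell in the Gata1 gate (−2.70, SE 0.39, adjusted p = 8.94e-06) and rose in the Dntt gate (0.67, SE 0.15, adjusted p = 9.22e-04) and the Elane gate (1.502, SE 0.25, adjusted p = 3.05e-05), all in edgeR. Of the 3 tested receptors and co-receptors of this list, edgeR without the mouse as a block called 0 higher and 0 lower in the Procr gate. It called 0 higher and 1 lower in each of the Gata1 and Dntt gates, and 1 higher and 2 lower in the Elane gate. At an unadjusted p under 0.05, 1 was higher and 0 lower in the Procr gate, and 1 higher and 1 lower in each of the Gata1 and Dntt gates. With every cell thinned to 2000 UMIs, 1 of these 3 receptors and co-receptors could be tested. That gene was called in the Procr and Dntt gates and not in the Gata1 and Elane gates. Itga9, also among the other receptors and co-receptors, fell in the Elane gate (−1.47, SE 0.59, edgeR adjusted p = 0.0299). Sox18, an endothelial transcription factor, was tested in the Procr gate alone and was higher there (1.99, SE 0.37, edgeR adjusted p = 1.20e-04). Both were low over all cells. Itga9 had 0.781 and 1.02 TMM-scaled CPM in the PyMT mice, against 1.15 and 1.79 in the WT mice. Sox18 had 0.595 and 0.619 TMM-scaled CPM in the PyMT mice, against 0.804 and 1.90 in the WT mice. Genes this low can pass the filter on low counts through the cells where they are higher, so neither call is support by itself. Between genotypes, 0 of the 30 list genes tested passed in edgeR; at an unadjusted p under 0.05, 7 were higher and 2 lower, and DESeq2 called 3 higher and 0 lower. Over the 5 lists, 5 of 28 tested genes rose and 3 fell in the Procr gate, where 10.5% of all genes rose and 14% fell. In the Gata1 gate 2 of 26 rose and 7 fell, where 14.7% of all genes rose and 16.1% fell, and in the Dntt gate 5 of 28 rose and 3 fell, where 16.2% rose and 14.3% fell. In the Elane gate 8 of 28 rose and 10 fell, where 28.3% of all genes rose and 29.2% fell.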

How the data were processed

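The submitters' processing notes name Trim Galore, STAR 2.5.3a, Cell Ranger 6.0.0 and the build mm10, with no role given. The deposited tables hold raw counts: reads per gene for the bulk libraries and UMIs per gene and cell for the single-cell libraries. The bulk kit keeps strand, per the labels' protocols, but no source used here gives the strand setting of the counting. The authors deposited a cluster number per stromal cell and the share of mitochondrial UMIs, as a fraction in the stromal metadata and as a percent in the HSPC metadata. No source used here gives the sort gates.

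Stromal cells were kept from 500 detected genes upwards and below a mitochondrial share of 10%, and all deposited HSPC were used. Doublets were not removed. Tests used edgeR 4.0.16 (quasi-likelihood, TMM, filterByExpr) with limma 3.58.1 in R 4.3.3 on bulk counts and on UMIs summed per mouse, and adjusted p-values over all genes tested. Python 3.11.15 with numpy 2.4.6, scipy 1.17.1, pandas 2.3.3 and matplotlib 3.10.9 did the rest. Stromal ratios needed 20 UMIs and at least 100 cells per library. Alternatives were DESeq2 1.42.0, RLE size factors, no filter on low counts, a replicate block or none, stricter gates, thinned cells and each library left out.

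The members and the gene lists were chosen with earlier results of these data known. Named genes were all 8 members, the list genes that passed edgeR's test in bulk MSC, the 3 genes closest in pattern to a member, and defining markers. Of the list genes that passed in the HSPC gates, only Tie1, Nrp1, Itga9 and Sox18 were named, chosen with the values known, and the others were only counted. Stromal list genes were named after their values were seen. On simulated counts, the bulk fit over 16317 genes recovered 19.4%, 47.8% and 69.7% of genes changed 1.5-, 2- and 4-fold, and 5.21% of 96 calls were false. The HSPC genotype fit over 11759 genes recovered 56.7%, 77.6% and 100% at these folds, with 8.24% of 170 calls false. The Gata1 gate fit over 10885 genes recovered 67.2%, 83.6% and 98.5%, with 5.14% of 175 calls false. Ratio intervals held the true value in 96.4% of 2000 simulated pairs.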

Additional observations from a re-analysis of the deposited data

Results flagged for a closer look

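Epas1, the hypoxia-inducible factor gene that was higher in Py230 MSC, had 1 tumour-free library that stood apart: replicate 2 had 2114 CPM, against 1903 to 1937 CPM in the other 3. The gap took up 0.835 of the group's range, above the limit of Dixon's test for 4 libraries. In all, 28 groups of 4 libraries were examined this way, and chance sets about 1 in 20 apart.

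Vegfc had opposite log2 ratios of PyMT over WT in 2 stromal clusters, −0.40 in the LepR+ cluster 0 and 0.72 in the fibroblast-like cluster 2. The difference between the clusters was not tested, since each genotype has 1 library.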

How the results depend on the processing

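The 4 calls in bulk MSC (Vegfa and Flt4 higher, Angpt1 and Vegfc lower) were the same in number and direction under all 12 alternatives, at adjusted p-values of at most 0.0385. Replicate numbers are shared by the bulk groups, and the labels do not say whether they pair the libraries. Same-numbered libraries had r of −0.39, −0.13, −0.20 and 0.02, and differently numbered ones −0.48 to 0.52, which cannot settle whether they were paired. With the replicate block, 4 members and 413 genes were called, against 771 without it, and Tek turned to −0.047. Signs of uncalled bulk differences turned with 1 library left out: Angpt4 ranged from −0.025 (without tumour-free replicate 4) to 0.27, Tek from −0.20 (without Py230 replicate 4) to 0.76, and, lowest without Py230 replicate 1, Kdr from −0.080 to 1.09 and Flt1 from −0.050 to 1.31. Leaving out libraries left 377 to 682 genes called in bulk.

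In HSPC, Angpt1 stayed called under all 8 alternatives. The number of members called was 2 with DESeq2 and 1 to 3 with a mouse left out, where the lone mouse is assumed to vary like the others; over all genes it was 165 in the test reported, 625 with DESeq2 and 184 to 1932 with a mouse left out. With a mouse left out, Kdr ranged from −0.036 (without PyMT replicate 2) to 0.43, and Flt1 from −0.40 (without PyMT replicate 1) to 2.83, at −0.052 without WT replicate 2.

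The Procr gate called 2 members, but 1 with the gate at 2 UMIs, RLE size factors, DESeq2, no filter or thinned cells, 0 with no replicate block, and 1 to 2 with a mouse left out; Vegfc turned to −0.13 with the gate at 2 UMIs. The Gata1 gate called 3, but 0 with thinned cells, 1 with no replicate block, and 2 to 3 with a mouse left out; Vegfa turned to −0.16 with the gate at 2 UMIs and ranged from −0.045 (without PyMT replicate 1) to 0.17 with a mouse left out. The Dntt gate called 3, but 2 with DESeq2 or thinned cells, 1 with no replicate block, and 2 to 3 with a mouse left out; Vegfc turned to 0.39 with thinned cells. The Elane gate called 5, but 4 with the gate at 10 UMIs or no replicate block, 3 with DESeq2, 1 of 2 tested with thinned cells, and 4 to 5 with a mouse left out. In stroma, 5 of 16 ratios passed 1.5-fold, and 9 did (6 higher, 3 lower) with cells thinned to 1500 UMIs. The causes were not tested. Of 324 alternatives for single members with a test, 280 kept direction and call, 28 lost the call, 4 gained it and 12 turned.

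Stromal comparisons have 1 library per genotype and so no test at any depth, and receptors outside the endothelial-like clusters rest on few UMIs.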
